A study of Mus musculus with 4 samples.

Results

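The Egr and Nr4a early-response factors are 6 transcription factor genes, Egr1, Egr2, Egr3, Nr4a1, Nr4a2 and Nr4a3, taken by symbol from a table of 19044 genes. Values were obtained for 5 of the 6, since Egr2 was not analysed here, and all 5 passed the level minimum of a mean of 5 CPM. CPM is a gene's count scaled to the depth of its library, here with TMM factors. The genes were read in regulatory T (Treg) cells, the Foxp3-expressing CD4+ cells that restrain other immune cells, from spleen and peripheral lymph nodes of untreated mice. The KO-labelled libraries came from Ripk1fl/fl Foxp3-YFP-Cre mice, and the WT libraries from Foxp3-YFP-Cre mice. All 4 libraries thus carried the Cre recombinase and yellow fluorescent protein under Foxp3 control, which limits deletion of the floxed part of Ripk1 to cells that express Foxp3. Each genotype gave 1 aTreg and 1 rTreg library. The labels do not spell out the prefixes, which in this field stand for activated and resting. The labels give neither the sorting gate nor the age, sex and number of the mice, and do not say whether both states of a genotype were sorted from shared animals.

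Egr1 and Egr3 are zinc-finger factors that T cells transcribe within minutes of antigen receptor engagement, mainly through the Ras and ERK kinase route and serum response factor. Nr4a1 (Nur77), Nr4a2 (Nurr1) and Nr4a3 (Nor1) are orphan nuclear receptors that the same stimulus induces, chiefly through calcium signals, and Nr4a1 reporters are widely used as a gauge of receptor signalling. In mouse Treg cells the Nr4a receptors are known to help sustain Foxp3 expression. Both families also respond to handling of cells, such as tissue dissociation and sorting.

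Depth was 17588754 to 20868319 counts per library. Ripk1, the targeted gene, was at 80.8 CPM in KO-labelled aTreg, 84.7 in KO-labelled rTreg, 77.5 in WT aTreg and 83.6 in WT rTreg, so the counts over the whole gene showed no loss. The labels do not name the floxed exons, and Ripk1 overlaps other annotated genes, among them Serpinb6a on the opposite strand. A count over the whole gene therefore checks the deletion weakly, and KO-labelled is used throughout. Xist, the RNA of the inactive X chromosome, was at 0.213 and 0.284 CPM in KO-labelled aTreg and rTreg, against 338 and 299 CPM in WT aTreg and rTreg. Y-linked Ddx3y was at 112 and 126 CPM in KO-labelled aTreg and rTreg, against 97.5 and 121 CPM in WT aTreg and rTreg. The sex makeup of the libraries thus differed with genotype, and its part in any difference between genotypes cannot be told apart from that of the label. Of 9 Treg and T cell markers 8 were in the table, summing to 4059.9 and 3977 CPM in KO-labelled aTreg and rTreg and to 3945 and 3562 CPM in WT aTreg and rTreg. Foxp3 itself was at 658, 619, 694 and 688 CPM in the same order. All 9 activated Treg markers rose in aTreg and all 8 resting ones fell, so the state labels went with their markers.

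The start-site regions of the Nr4a genes are shown first, because these 3 genes are set side by side in the results. Of the 5 genes analysed, 3 matched the RefSeq promoter table by symbol (build GRCm38.p6). Each window runs from 250 bases before the start site to 50 after it, 5′ to 3′ on the gene's strand. Capitals mark TGACG or its reverse complement CGTCA, the core of the cyclic AMP response element (CRE) to which CREB binds. The windows are chr15:101266596-101266895 (plus strand) for Nr4a1, chr2:57123954-57124253 (minus strand) for Nr4a2 and chr4:48045055-48045354 (plus strand) for Nr4a3. The Nr4a1 window lies inside the annotated gene, which begins at 101254269. Which start sites these cells used was not measured.
Nr4a1: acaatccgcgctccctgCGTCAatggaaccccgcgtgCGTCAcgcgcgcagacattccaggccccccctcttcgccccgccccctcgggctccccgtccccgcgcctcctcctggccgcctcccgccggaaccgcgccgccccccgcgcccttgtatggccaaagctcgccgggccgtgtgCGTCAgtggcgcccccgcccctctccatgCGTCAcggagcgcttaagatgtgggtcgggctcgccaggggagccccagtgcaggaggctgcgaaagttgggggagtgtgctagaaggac
Nr4a2: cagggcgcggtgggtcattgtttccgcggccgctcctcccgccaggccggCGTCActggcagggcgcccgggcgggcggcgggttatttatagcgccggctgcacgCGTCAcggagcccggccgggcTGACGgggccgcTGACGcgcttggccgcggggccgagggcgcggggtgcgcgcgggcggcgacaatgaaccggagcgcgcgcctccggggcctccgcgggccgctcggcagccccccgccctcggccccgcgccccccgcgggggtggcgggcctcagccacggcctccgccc
Nr4a3: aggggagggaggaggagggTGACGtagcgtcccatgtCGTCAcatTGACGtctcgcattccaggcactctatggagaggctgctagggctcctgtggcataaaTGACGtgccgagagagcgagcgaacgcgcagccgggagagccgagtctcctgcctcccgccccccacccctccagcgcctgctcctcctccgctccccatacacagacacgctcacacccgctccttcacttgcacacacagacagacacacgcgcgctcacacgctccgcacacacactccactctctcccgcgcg

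Each of these 3 windows held the CRE core at 4 positions, counting both strands. Of all 32851 windows in the promoter table, 20.8% held it at least once and 0.231% (76 windows) at 4 or more positions. Counted from the start site to the first base of the match, the core stood at -233, -213, -69 and -40 in Nr4a1, at -200, -144, -123 and -111 in Nr4a2, and at -231, -213, -205 and -147 in Nr4a3. The full palindrome TGACGTCA (1.79% of windows, both strands), the Nr4a site AAAGGTCA (1.51%) and the Egr site GCGTGGGCG (0.612%) were not in these windows. The serum response element known as the CArG box, in its strict form CCWWWWWWGG with W for A or T (1.63%), was absent too. Looser forms of these sites were not searched. The Egr site GCGGGGGCG (2.91% of windows) was at 1 position in Nr4a1 and TATAAA (13.6%) at 1 position in Nr4a2. A letter match does not show that a factor binds there, and no binding was measured.

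Per length, Nr4a1 was the highest of the 5 genes in every library and Egr1 the second. Divided by the exon length of GENCODE M21, Nr4a1 was at 262, 224, 377 and 215 CPM per kb in KO-labelled aTreg, KO-labelled rTreg, WT aTreg and WT rTreg. Egr1 was at 55.2, 35.9, 204 and 36.7 CPM per kb in the same order. The other genes lay well below, and their order differed with the label. In the KO-labelled aTreg and rTreg libraries Nr4a3 (14.6 and 14.3 CPM per kb) stood above Nr4a2 (13.2 and 11). In the WT aTreg and rTreg libraries it stood below, at 20.8 and 15.5, against 34.0 and 20.6 for Nr4a2. Egr3 was the lowest in all 4, from 6.61 CPM per kb in KO-labelled rTreg to 16.0 in WT aTreg. None of the 5 genes overlapped another annotated gene, so the unknown strand setting of the counting does not blur their counts.

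Every one of the 5 genes was highest in the WT aTreg library, which held for 26.0% of all 9680 tested genes. In sorted cells measured in bulk, fewer cells that express a gene and less of its RNA per cell cannot be told apart. With 1 library a group, brackets below give 95% counting intervals, which say nothing of the spread between mice, and a ratio of 2 libraries has no replicate check.

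**Figure D1:**
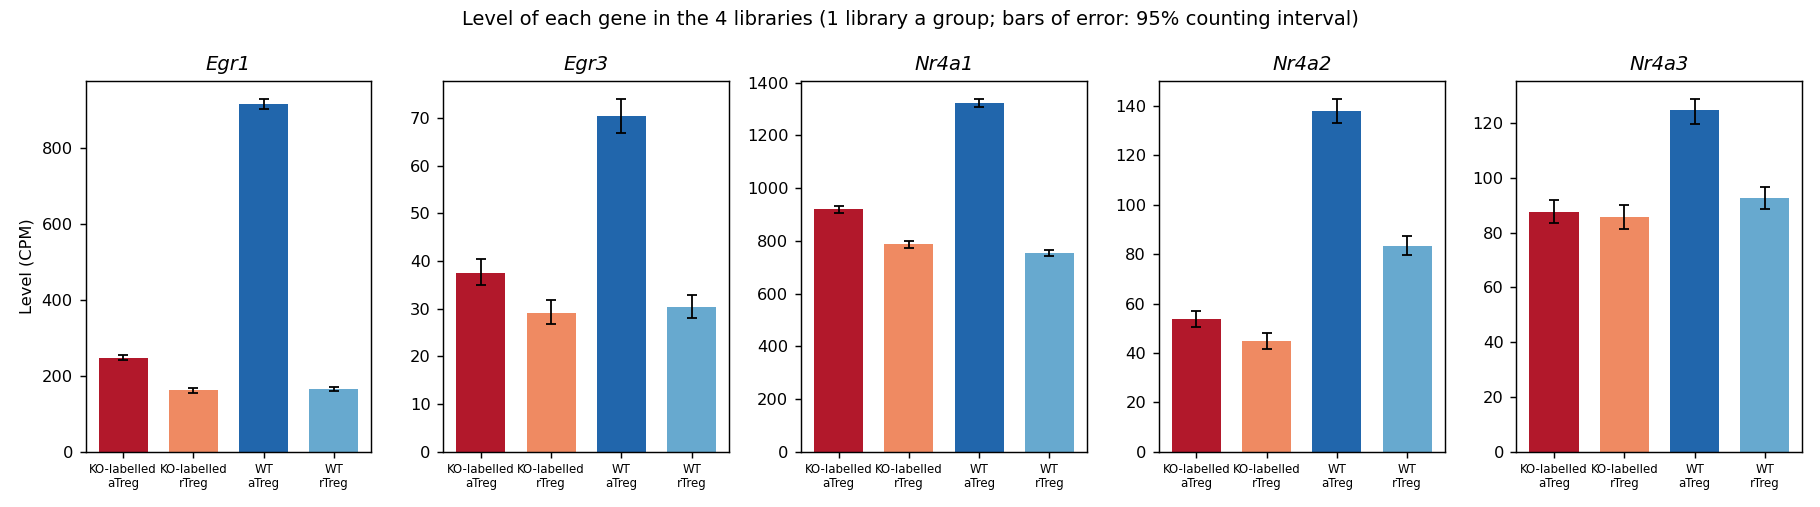
Level in CPM of Egr1, Egr3, Nr4a1, Nr4a2 and Nr4a3 (panels, each with its own scale from 0) in the 4 libraries, with 95% counting intervals. In each panel the WT aTreg bar is the highest, by the widest margin for Egr1 (916 CPM, against 247 CPM in the next library).

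Egr1 (chromosome 18, 34859823 to 34864984, plus strand, GRCm38) was at 247 CPM [240.4 to 255] in KO-labelled aTreg and 161 CPM [155 to 167] in KO-labelled rTreg, against 916 CPM [903 to 929] in WT aTreg and 164 CPM [159 to 169.9] in WT rTreg. The WT aTreg library stood 1.89 log2 units above the next one, the largest such margin of all tested genes, while the intervals of the rTreg libraries overlapped. The aTreg over rTreg ratio was 0.62 log2 units [0.55 to 0.69] in the KO-labelled pair and 2.48 [2.43 to 2.53], or 5.57-fold, in the WT pair. The KO-labelled over WT ratio was -1.89 [-1.94 to -1.84] in aTreg and -0.03 [-0.10 to 0.04] in rTreg. Ranked among all tested genes, the state ratio stood 259th from the top in the KO-labelled pair and 11th in the WT pair.

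Egr3 (chromosome 14, 70077203 to 70082614, plus strand), a close relative of Egr1 that is tied to T cell unresponsiveness in mice, followed the same order at a lower level. It was at 37.6 CPM [34.9 to 40.5] in KO-labelled aTreg and 29.1 [26.7 to 31.8] in KO-labelled rTreg, against 70.4 [66.8 to 74.1] in WT aTreg and 30.4 [28.1 to 32.9] in WT rTreg. The rTreg intervals again overlapped. The aTreg over rTreg ratio was 0.37 [0.20 to 0.54] in the KO-labelled pair and 1.21 [1.07 to 1.35] in the WT pair. Between genotypes, the KO-labelled over WT ratio was -0.90 [-1.04 to -0.77] in aTreg and -0.06 [-0.23 to 0.11] in rTreg.

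Nr4a1 (chromosome 15, 101254269 to 101274795, plus strand) varied less, around a high level. It was at 920.3 CPM [907 to 934] in KO-labelled aTreg and 787 [774 to 801] in KO-labelled rTreg, against 1324 [1308 to 1339.6] in WT aTreg and 754 [743 to 766] in WT rTreg. It was the only gene of the 5 that was lowest in WT rTreg. The aTreg over rTreg ratio was 0.23 [0.19 to 0.26] in the KO-labelled pair and 0.81 [0.78 to 0.84] in the WT pair. The KO-labelled over WT ratio was -0.52 [-0.55 to -0.50] in aTreg and 0.06 [0.03 to 0.09] in rTreg.

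Nr4a2 (chromosome 2, 57106830 to 57124003, minus strand) differed between genotypes in both states, and its intervals in the KO-labelled libraries lay below those in both WT libraries. It was at 53.6 CPM [50.3 to 57.0] in KO-labelled aTreg and 44.8 [41.7 to 48.0] in KO-labelled rTreg, against 138 [133 to 143] in WT aTreg and 83.5 [79.6 to 87.5] in WT rTreg. The KO-labelled over WT ratio was -1.36 [-1.47 to -1.26] in aTreg, or 2.57-fold lower, and -0.90 [-1.02 to -0.78] in rTreg. The aTreg over rTreg ratio was 0.26 [0.12 to 0.39] in the KO-labelled pair and 0.72 [0.64 to 0.81] in the WT pair.

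Nr4a3 (chromosome 4, 48045153 to 48086447, plus strand) differed least between states. It was at 87.7 CPM [83.5 to 92.0] in KO-labelled aTreg and 85.6 [81.3 to 90.0] in KO-labelled rTreg, against 125 [119.7 to 129] in WT aTreg and 92.6 [88.6 to 96.8] in WT rTreg. Both KO-labelled levels lay below both WT levels, but their intervals overlapped each other and that of WT rTreg. The aTreg over rTreg ratio was 0.04 [-0.07 to 0.14] in the KO-labelled pair and 0.43 [0.34 to 0.51] in the WT pair. Between genotypes, the KO-labelled over WT ratio was -0.51 [-0.60 to -0.42] in aTreg and -0.11 [-0.21 to -0.02] in rTreg.

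**Figure D2:**
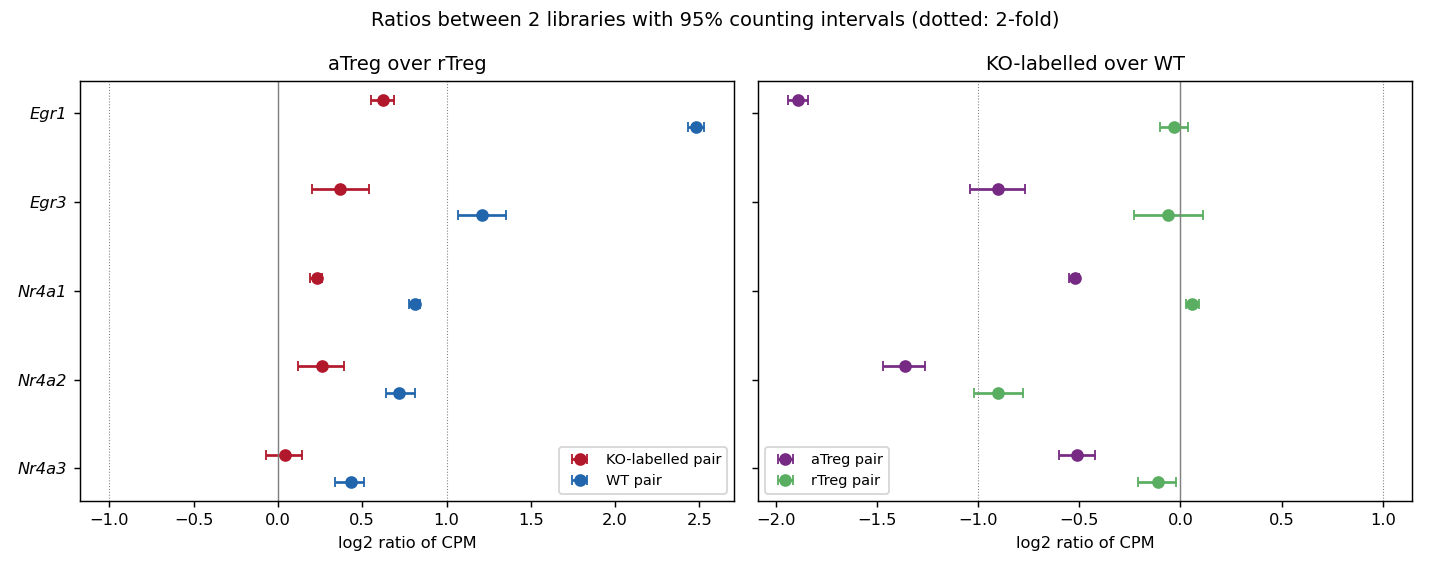
Log2 ratios of CPM between 2 libraries for the 5 genes, with 95% counting intervals; left, aTreg over rTreg in the KO-labelled and WT pairs; right, KO-labelled over WT in the aTreg and rTreg pairs. For each gene the WT state ratio lies right of its KO-labelled one. In the right panel Nr4a2 is the gene far below 0 in both pairs (-1.36 and -0.90).

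All 5 genes had a state ratio above 0 in the KO-labelled pair, as 50.7% of tested genes did, and in the WT pair, as 50.2% did. Between states, none of the 5 was at least 2-fold higher in aTreg in the KO-labelled pair (0.950% of tested genes were), while 2, Egr1 and Egr3, were in the WT pair (1.87%). None was at least 2-fold lower in aTreg in the KO-labelled pair (0.134%) or the WT pair (0.723%). Between genotypes, none of the 5 had a KO-labelled over WT ratio above 0 in aTreg (50.1% of tested genes) and 1, Nr4a1, had one in rTreg (50.8%). At least 2-fold lower in KO-labelled than in WT cells were 2, Egr1 and Nr4a2, in aTreg (2.17% of tested genes) and none in rTreg (1.34%), where Nr4a2 came closest. None was at least 2-fold higher in aTreg (3.95%) or rTreg (3.41%).

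The state ratio was smaller in the KO-labelled pair than in the WT pair for all 5 genes, as for 49.9% of tested genes. For Egr1 the KO-labelled minus WT difference was -1.86 log2 units [-1.94 to -1.77], the lowest of all 9680 tested genes. Egr1 was the only one of the 5 with a difference of at least 1 log2 unit in this direction, past which 0.413% of tested genes lay. It was -0.84 [-1.06 to -0.62] for Egr3, -0.59 [-0.63 to -0.54] for Nr4a1, -0.47 [-0.63 to -0.30] for Nr4a2 and -0.39 [-0.52 to -0.26] for Nr4a3. This design has no replicate error for such a difference, so it was not tested. None of the 5 had a difference of at least 1 log2 unit the other way (0.393% of tested genes). Egr1 alone of the 5 was at least 1 log2 unit above every other library in WT aTreg (0.258% of tested genes). Of the 9 activated Treg markers, all but Klrg1 (a difference of 0.21) also had a smaller state ratio in the KO-labelled pair. The median difference of the 9 was -0.72 log2 units, against 0.00 over all tested genes. These 9 markers summed to 1487 and 938 CPM in KO-labelled aTreg and rTreg, against 1152 and 533 CPM in WT aTreg and rTreg. With genotype 7 of the 9 rose and none fell (24.4% and 22.8% of all tested genes). The 8 resting Treg markers summed to 2292 and 3729 CPM, against 2531 and 4198 CPM, in the same order. The part of this shift in the Egr and Nr4a differences was not tested.

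**Figure D3:**
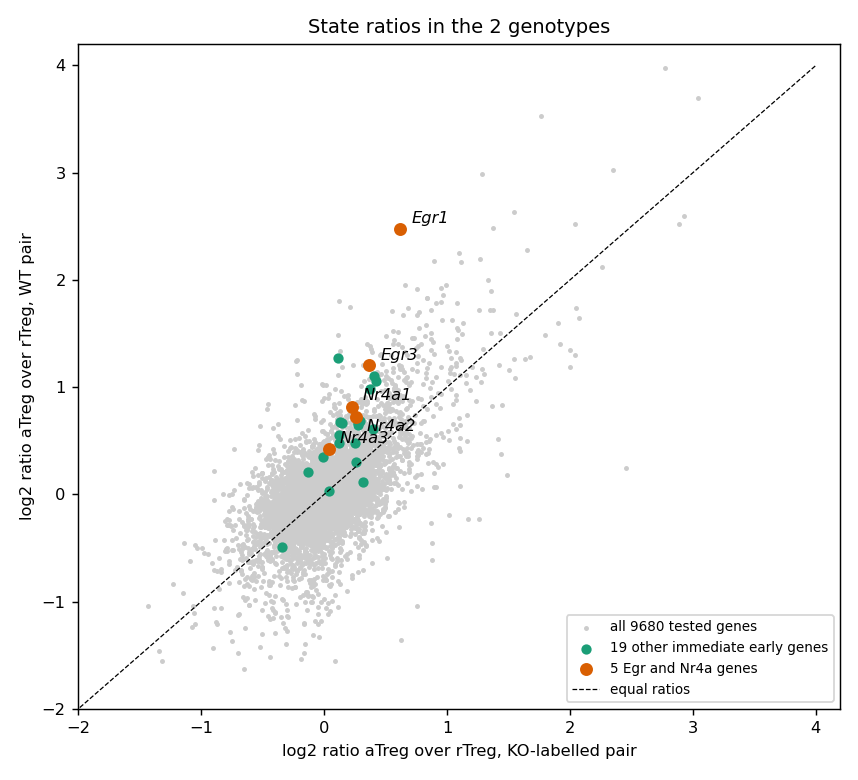
Log2 ratio of aTreg over rTreg in the KO-labelled pair (x axis) and the WT pair (y axis) for 9680 tested genes (grey), 19 other immediate early genes (green) and the 5 Egr and Nr4a genes (orange); the dashed line marks equal ratios. All 5 lie above the line, with Egr1 farthest from it at 0.62 and 2.48.

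A test over all 4 libraries with state and genotype as additive terms (edgeR's quasi-likelihood test, Benjamini-Hochberg adjusted over all tested genes) gave the error that keeps state and genotype apart. The words rose and fell are kept for genes past its threshold. For state 13.4% of tested genes were called, and 4 of the 5 genes rose in aTreg (7.91% of tested genes) while none fell (5.44%). The state effect of Egr1 was 1.56 log2 units (SE 0.284, edgeR adjusted p = 0.00273), and Egr3 rose by 0.81 (SE 0.149, 0.00297), Nr4a1 by 0.52 (SE 0.107, 0.00612) and Nr4a2 by 0.51 (SE 0.0946, 0.00303). Nr4a3 did not pass (0.24, SE 0.0856, edgeR adjusted p = 0.0913).

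For genotype 47.2% of tested genes were called, and 4 of the 5 genes fell in the KO-labelled libraries (22.8% of tested genes) while none rose (24.4%). With a background this wide, the count by itself says little about these genes. Nr4a2 fell by 1.14 log2 units (SE 0.0952, edgeR adjusted p = 1.3e-06), Egr1 by 0.98 (SE 0.281, 0.0118), Egr3 by 0.51 (SE 0.149, 0.0131) and Nr4a3 by 0.31 (SE 0.0857, 0.00923). Nr4a1 did not pass (-0.23, SE 0.107, edgeR adjusted p = 0.0907). The fit has 1 residual degree of freedom and borrows most of each gene's error from the other genes. Each effect is taken over both levels of the other factor, and any difference of the state ratio between genotypes enters the error. For genotype, Egr1 had KO-labelled over WT ratios of -1.89 in aTreg and -0.03 in rTreg, and Egr3 of -0.90 and -0.06. For state, Egr1 had ratios of 0.62 in the KO-labelled pair and 2.48 in the WT pair. With DESeq2 and the same terms, 2 of the 5 were called for state (Egr3, adjusted p = 0.00514, and Nr4a2, 0.0299) and 1 for genotype (Nr4a2, 2.81e-12), while Egr1 had adjusted p of 0.464 for state and 0.437 for genotype. In the authors' deposited table, whose fold change is WT over knockout, Nr4a2 was at 1.16 log2 units (SE 0.240, adjusted p = 3.81e-05). The other 4 genes had adjusted p of 0.233 to 0.580 in the authors' deposited table.

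Among the genes that act with these factors, the Egr corepressors went opposite ways between genotypes. Nab2, a corepressor that Egr factors themselves induce, was at 50.4 and 44.9 CPM in KO-labelled aTreg and rTreg, against 76.8 and 58.6 CPM in WT aTreg and rTreg. It fell with genotype by 0.50 log2 units (edgeR adjusted p = 0.00029) and rose in aTreg by 0.29 (edgeR adjusted p = 0.0354). Nab1, its relative, rose with genotype by 0.56 (edgeR adjusted p = 2.38e-05) and did not pass for state (0.463). Of the retinoid X receptors with which Nr4a1 and Nr4a2 can pair, Rxra rose with genotype by 0.45 (edgeR adjusted p = 0.000381) and Rxrb fell by 0.52 (edgeR adjusted p = 3.92e-05). For state, Rxra rose in aTreg by 0.38 (edgeR adjusted p = 0.00458) and Rxrb did not pass (0.379).

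Other immediate early genes were mostly highest in the same library. Of 22 listed, 19 were tested. Of the 19, 17 had their highest level in WT aTreg (26.0% of all tested genes), the exceptions being Jund and Klf10. In aTreg 14 rose and none fell (7.91% and 5.44% of all tested genes). The median state ratio was 0.25 in the KO-labelled pair and 0.61 in the WT pair, against 0.00 in both over all tested genes. With genotype none rose and 14 fell (24.4% and 22.8% of all tested genes). The median KO-labelled over WT ratio was -0.69 in aTreg and -0.45 in rTreg, against 0.00 and 0.01 over all tested genes. Fos, an AP-1 subunit, was at 310.1 and 234 CPM in KO-labelled aTreg and rTreg, against 719 and 335 CPM in WT aTreg and rTreg. Npas4, an activity-dependent factor best known in neurons, was at 3.20 and 2.95 CPM, against 17.0 and 7.0 CPM, in the same order. Btg2, an antiproliferative gene, had KO-labelled over WT ratios of -1.64 in aTreg and -1.09 in rTreg, and Dusp1, a phosphatase that turns off MAP kinases, of -1.39 and -1.0. Fosb had state ratios of 0.42 in the KO-labelled pair and 1.06 in the WT pair, and Junb of 0.29 and 0.69. Jun did not pass for genotype (edgeR adjusted p = 0.962), and Myc did not either (0.0505).

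**Figure D4:**
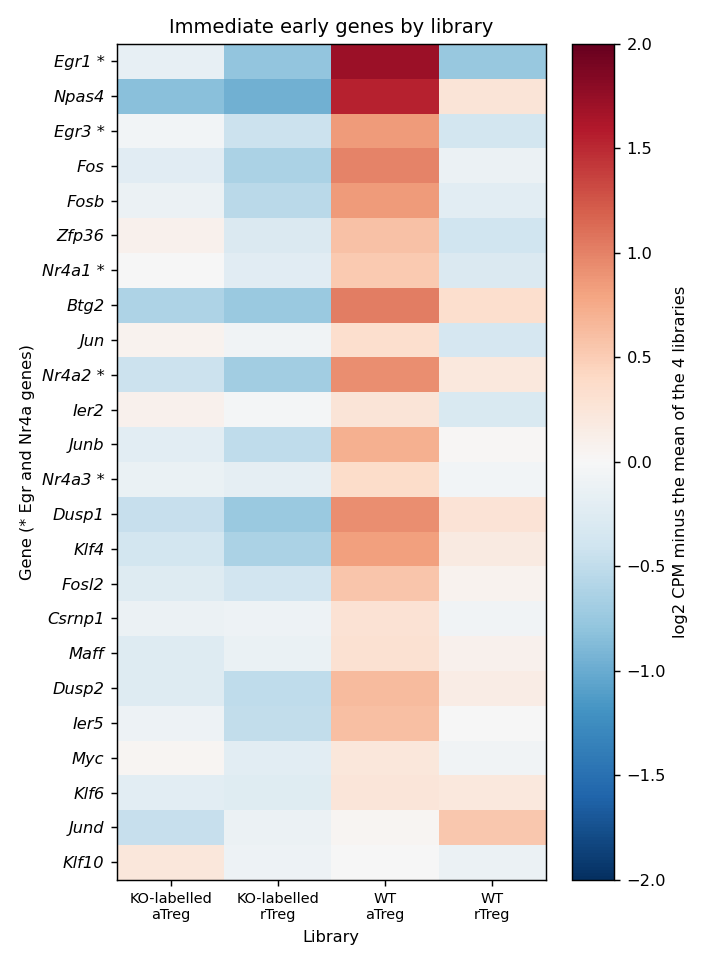
Log2 CPM of 24 immediate early genes minus their mean over the 4 libraries, with the 5 Egr and Nr4a genes marked by an asterisk, sorted by how much smaller the state ratio was in the KO-labelled pair than in the WT pair. The WT aTreg column is the highest for all but Jund and Klf10, and Egr1 stands at the top.

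Heat shock genes, another group known to react when cells are dissociated and sorted, differed between genotypes as well. Of 9 listed, 7 were tested, and 6 of them were highest in WT aTreg (26.0% of all tested genes). With genotype none of the 7 rose (24.4%) and 5 fell (22.8%). The summed level of all 9 was 3628 and 3759.9 CPM in KO-labelled aTreg and rTreg, against 4114 and 3721 CPM in WT aTreg and rTreg. Hspa8 made up most of this (2617 and 2679.9 CPM, against 2468 and 2244 CPM, in the same order). It did not pass for genotype (0.17, edgeR adjusted p = 0.0686). Hsph1 had KO-labelled over WT ratios of -1.63 in aTreg and -1.21 in rTreg, Dnajb1 of -0.80 and -0.46 and Dnaja1 of -0.79 and -0.63. For state 1, Hspa1b, rose in aTreg (7.91% of all tested genes), by 0.94 log2 units (edgeR adjusted p = 0.00254), and none fell (5.44%). Their part in the differences of the Egr and Nr4a genes was not tested.

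The signalling routes upstream of the 2 families are read against the 13.4% of all tested genes called for state and the 47.2% called for genotype. Of 15 genes of the ERK route, 1 rose in aTreg (Elk3) and 2 fell, among them Nras. Their median state ratio was 0.07 in the KO-labelled pair and -0.03 in the WT pair, and their median KO-labelled over WT ratio was 0.04 in aTreg and 0.01 in rTreg, all near the 0.00 to 0.01 of all tested genes. With genotype 4 rose, among them Hras, Nras and Mapk3, and 3 fell, among them Elk1 and Elk4. Srf, which encodes serum response factor, did not pass for state (edgeR adjusted p = 0.131) or genotype (0.538). Of 17 tested genes of the calcium route, Nfatc1, Nfatc2 and the calcium channel gene Itpr1 rose in aTreg and Mef2a fell, with a median state ratio of 0.05 in the KO-labelled pair and 0.02 in the WT pair. Nfatc1, a calcium-driven factor, had state ratios of 0.41 in the KO-labelled pair and 0.64 in the WT pair. With genotype 4 genes of the calcium route rose (Itpr1, Ppp3cb, Ppp3cc and Nfatc3) and 4 fell (Itpr2, Itpr3, Orai2 and Mef2d). Of 8 genes for CREB and its coactivators, none was called for state. With genotype none of the 8 rose and 5 fell, with a median KO-labelled over WT ratio of -0.23 in aTreg and -0.18 in rTreg. Among them were Crtc1 (-0.64 in aTreg and -0.58 in rTreg) and Creb1 (-0.25 and -0.33).

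Among genes that studies in mouse T cells tie to these factors, more rose than fell in aTreg, as over all tested genes (7.91% rose and 5.44% fell), while genotype calls went both ways (24.4% and 22.8% over all tested genes). Of 11 tested genes tied to Egr2 and Egr3, 5 rose and 1 fell in aTreg, and 5 rose and 3 fell with genotype. Their median state ratio was 0.49 in the KO-labelled pair and -0.04 in the WT pair. These medians fall on different genes, and the median of the KO-labelled minus WT differences taken gene by gene was -0.04. Of these genes 1 was highest in WT aTreg (26.0% of all tested genes). Lag3, an inhibitory receptor, had state ratios of 1.56 in the KO-labelled pair and 1.68 in the WT pair. Its KO-labelled over WT ratios were 0.15 in aTreg and 0.27 in rTreg, and it did not pass for genotype (edgeR adjusted p = 0.0886). The cell cycle inhibitor Cdkn1a and the transcription factor gene Bhlhe40 rose with both aTreg state and genotype, by 1.04 and 1.33 and by 0.96 and 1.08 log2 units. Sema7a had a KO-labelled over WT ratio of 1.81 in aTreg and 0.47 in rTreg, and rose with genotype (1.17, edgeR adjusted p = 0.00418).

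Of 11 tested genes tied to the Nr4a receptors, 4 rose and 1 fell in aTreg, and 3 rose and 5 fell with genotype. Their median state ratio was 0.07 in the KO-labelled pair and 0.29 in the WT pair. Of these genes 7 were highest in WT aTreg (26.0% of all tested genes). Havcr2, the inhibitory receptor TIM-3, was at 40.9 and 15.3 CPM in KO-labelled aTreg and rTreg, against 2.43 and 1.67 CPM in WT aTreg and rTreg. Tox2, a nuclear factor linked to T cell exhaustion, went the other way, at 19.1 and 9.76 CPM, against 50.2 and 13.7 CPM, in the same order. The death-promoting gene Bcl2l11 fell with genotype by 1.01 log2 units (edgeR adjusted p = 3.75e-07) and with aTreg state by 0.61 (edgeR adjusted p = 0.000124). Pdcd1, the receptor PD-1, rose in aTreg by 1.20 (edgeR adjusted p = 3.97e-06) and fell with genotype by 0.31 (edgeR adjusted p = 0.0117). Foxp3 was not called for genotype (edgeR adjusted p = 0.187) or state (0.701).

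Likeness over the 4 libraries was measured as the root mean square difference of log2 CPM after each gene was centred on its own mean, among 9272 tested genes, leaving out predicted genes, clone names, pseudogenes and antigen receptor segments. With 4 values a gene, many genes can come close, and the values describe these libraries alone. Genes were not scaled to an equal range, so genes with the same order of libraries but unlike ranges, such as Egr1 and Egr3, lie apart. Nearest to Egr1 were Tox2 (0.25 log2 units), Cd83 (0.302) and Epcam (0.342). Nearest to Egr3 were Mdfic (0.0709), Mapre3 (0.081) and Cxcr5 (0.0885). Nr4a1 had Spty2d1 (0.0332), Naaa (0.0419) and Nfil3 (0.0514) nearest to it, Nr4a2 had the clock gene Nr1d2 (0.0298), Dusp1 (0.0409) and the ectoenzyme gene Nt5e (0.0507), and Nr4a3 had Arc (0.0132), F2rl1 (0.0247) and Tfap4 (0.0308). No Egr or Nr4a gene was among the 3 nearest of another: Egr3 was the 30th nearest gene to Egr1 at 0.516, while Egr1 ranked 4167th from Egr3. Egr3 lay closer to Nr4a1, at 0.195, which was the 45th nearest gene to it. Nr4a3 was the 138th nearest to Nr4a1 at 0.157, and Nr4a1 ranked 1170th from Nr4a3. Nr4a2 was closer to Dusp1 than to any of the other 4, its nearest being Egr3 at 0.368.

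Markers of other cell types were low apart from Ighm, and some differed between libraries. The 8 B cell markers, all in the table, summed to 711 and 749 CPM in KO-labelled aTreg and rTreg, against 604 and 357 CPM in WT aTreg and rTreg. Ighm made up most of this (689, 732, 579 and 343 CPM in the same order), while the defining B cell gene Ms4a1 had 0 and 3 counts in KO-labelled aTreg and rTreg, against 4 and 2 counts in WT aTreg and rTreg. The B cell receptor genes Cd22 (2.98, 2.04, 6.65 and 1.14 CPM) and Cd79b (12.9, 11.4, 14.1 and 8.77 CPM), in the same order, were highest in WT aTreg. The 9 myeloid markers summed to 15.4 and 18.8 CPM, against 14.3 and 14.9 CPM, and no more than 1 read of C1qa was counted in any library. Of 6 dendritic cell markers 4 were in the table, summing to 5.38 and 3.12 CPM in KO-labelled aTreg and rTreg, against 3.01 and 0.953 CPM in WT aTreg and rTreg. Of 5 NK cell markers 2 were, summing to 7.35 and 7.27 CPM, against 2.91 and 2.19 CPM, and the 2 CD8 T cell markers summed to 9.65 and 12.9 CPM, against 7.82 and 10.5 CPM. The 5 erythroid markers summed to 12.0 and 10.9 CPM, against 1.70 and 0.619 CPM. Of the 2 NK cell genes, Eomes was at 5.97 and 6.98 CPM in KO-labelled aTreg and rTreg, against 0.583 and 1.57 CPM in WT aTreg and rTreg. Klrb1c was at 1.39 and 0.284 CPM, against 2.33 and 0.619 CPM, in the same order. None of these sums was highest in WT aTreg, the library in which all 5 Egr and Nr4a genes were highest. A sum follows its largest genes, and single markers such as Cd22, Cd79b and Klrb1c were highest there. The part of these markers in the differences was not tested.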

How the data were processed

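Messenger RNA of 4 Treg libraries was read from a table of raw read counts per gene symbol deposited by the authors, made with HISAT2 2.2.1 and featureCounts 2.0.1 on GRCm38 per the submitters' processing notes. The labels' protocols name a SMARTer kit for library preparation. The annotation and strand setting of the counting were not given in the sources used here. A second deposited table holds variance-stabilised values on a log2-like scale and the authors' comparison of genotypes, per the file headers. Per the file headers, the authors' comparison gives for each gene a log2 fold change, a mean signal of counts divided by size factors, a test score, a p-value and an adjusted p-value, and its design was not stated.

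CPM used TMM-scaled library sizes (edgeR 4.0.16, R 4.3.3), and log2 ratios a prior count of 2. The test took the 9680 of 19044 genes whose mean reached 5 CPM, holding 99.31% of counts. The threshold was an adjusted p of 0.05. With 1 residual degree of freedom, and other libraries as the only replicates, p-values measure the spread between these libraries, not between mice. The code of the test was run on simulated counts, which does not check how well the model suits these libraries. DESeq2 1.42.0 was an alternative. Counting intervals (95%) are exact Poisson for levels, exact binomial for ratios, and exact conditional for differences of ratios (log-normal above 20000 counts). They cover counting error only: amplified reads are not separate molecules. Apart from these intervals, a fixed bound of 3 counts, 0.143 to 0.170 CPM, was set for a count of 0.

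The members, lists and tests were chosen with earlier results of these data known. Named genes are the members, the 3 genes nearest to each, up to 4 members of each pathway list with the largest ratio, and a few with a direct role. Genes listed to account for a count of calls, and those below the level minimum, were named after their values were seen. Positions and exon lengths are from GENCODE M21 (GRCm38), and promoters from RefSeq. Some genes of the lists are counted but not reported here by name.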

Additional observations from a re-analysis of the deposited data

Results flagged for a closer look

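For Nr4a1 the genotypes differed in opposite directions in the 2 states. The KO-labelled over WT ratio was -0.52 log2 units in aTreg and 0.06 in rTreg. This difference was not tested, since each ratio rests on 1 library a group. With upper-quartile scaling the ratio in rTreg was 0.01, so its sign rests on a small value.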

How the results depend on the processing

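Other scalings (DESeq2 size factors, upper quartile, library totals), level minimums of 1 CPM or none, a prior count of 0.5, DESeq2 and fits that leave out the other factor were tried. Of 100 ratios and differences of ratios of the 5 genes under another scaling or prior count, 98 stayed within the counting interval, and no value changed sign. The exceptions were the KO-labelled over WT ratios of Nr4a1 with upper-quartile scaling, -0.57 in aTreg and 0.01 in rTreg. DESeq2 with the same terms called 423 genes and 2 of the 5 for state, against 1293 and 4 with edgeR, and 2527 genes and 1 of the 5 for genotype, against 4573 and 4 with edgeR. With genotype left out, so that the libraries of a state serve as replicates, edgeR called 0 genes and 0 of the 5 for state, where 328 genes and 1 of the 5 had an unadjusted p under 0.05. With state left out it called 1626 genes for genotype and 1 of the 5, Nr4a2 (edgeR adjusted p = 0.0388). Nr4a2 was thus the gene whose genotype call held in every fit run, with adjusted p between 1.47e-42 and 0.0388. Nr4a1 passed for genotype with upper-quartile scaling (edgeR adjusted p = 0.0426) and with no level minimum (0.00489), and Nr4a3 for state with no level minimum (0.0309). Leaving out a library leaves no residual degree of freedom, so it gives ratios and no test. No paired analysis was possible because each group has 1 library and the labels give no replicate numbers to serve as a block. The additive fit does compare states within a genotype and genotypes within a state, and the fits that leave out the other factor, above, drop that. Depth limits Egr3 most of the 5, at 513 to 1450 counts.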

Other observations

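Early-response genes below the level minimum were not tested, and their counts are few. Egr4, the remaining Egr gene, had 16 and 1 counts in KO-labelled aTreg and rTreg, against 96 and 16 counts in WT aTreg and rTreg. Its aTreg over rTreg ratio was 2.58 log2 units [1.22 to 9.30] in the KO-labelled pair, where a single read stands in rTreg, and 2.46 [1.84 to 3.48] in the WT pair. Its KO-labelled over WT ratio in aTreg was -2.32 [-3.31 to -1.68]. These Egr4 ratios include the prior count of 2, which shrinks them at such counts, while the brackets rest on the raw counts. Atf3, a stress-induced factor, had 110 and 45 counts in KO-labelled aTreg and rTreg, against 130 and 39 counts in WT aTreg and rTreg. Fosl1, an AP-1 subunit, had 12 and 0 counts in KO-labelled aTreg and rTreg, against 12 and 5 counts in WT aTreg and rTreg, and by CPM it was highest in KO-labelled aTreg (0.64, against 0.583 in WT aTreg). Ier3 had 67 and 41 counts, against 82 and 28 counts, in KO-labelled and WT cells, each with aTreg before rTreg. The KO-labelled over WT ratio in aTreg was -0.11 for Atf3 and -0.15 for Ier3.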
